A study of Homo sapiens with 20 samples.

Results

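Matrix metalloproteinases are secreted or membrane-bound zinc proteases that cut collagens, gelatin, laminin and other proteins of the extracellular matrix, and the tissue inhibitors of metalloproteinases (TIMPs) bind their active sites. The 10 genes described here are 7 metalloproteinases (MMP1, MMP2, MMP3, MMP9, MMP10, MMP13 and MMP14) and 3 inhibitors (TIMP1, TIMP2 and TIMP3). They were taken by name from the 23368 genes of the read-count tables, and all 10 were found. RNA-seq libraries came from Panc1, a human pancreatic ductal carcinoma line, and A549, a human lung adenocarcinoma line, both of which the labels also tag as immortalized with SV40 large T antigen. In each line there were 4 groups: an siRNA against KLF10 together with TGFβ (siKLF10+TGFβ), TGFβ, the KLF10 siRNA alone (siKLF10), and a control siRNA (siCont). There were 3 libraries a group for Panc1 and 2 for A549, making 20, and letters A to C tell them apart. Treated cells received TGFβ for 72 h at 5 ng/ml, and whether the group labelled TGFb also received the control siRNA is not stated in the labels. Poly(A) RNA was taken from total RNA and sequenced with a directional kit. Nothing says that libraries of a group were separate cultures, so p-values reflect spread among libraries alone, and that spread can be technical.

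As background, most metalloproteinases are made as inactive proenzymes whose propeptide must be removed, and their transcription is controlled by growth factors and cytokines, TGFβ among them. MMP1 and MMP13 are collagenases, MMP3 and MMP10 are stromelysins with a broad range of substrates, and MMP2 and MMP9 are the gelatinases, which cut denatured collagen and basement membrane. MMP14 is anchored in the cell membrane and activates proMMP2 in a complex for which TIMP2 is the bridge. TIMP1 is a weak inhibitor of MMP14, while TIMP3 is bound to the matrix and also inhibits proteases of the ADAM family. In carcinoma cells TGFβ is known for inducing an epithelial-to-mesenchymal transition, in which matrix-degrading enzymes often change, and KLF10 is a zinc-finger transcription factor that TGFβ induces early. The question the series addresses is how loss of KLF10 alters the TGFβ response.

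The start regions of MMP10, MMP14, TIMP1 and TIMP3 are shown because they are those the RefSeq table held, and they differ in base composition. RefSeq promoter windows of 250 bases upstream of the annotated start (build GRCh38.p14, gene strand, 5′ to 3′) were found for these 4 of the 10 members. For the AP-1 site, the letters searched on both strands were TGANTCA. The TATA box was searched as TATAAA. The core of the GC box was searched as GGGCGG, whose other strand reads CCGCCC. A core of the ETS site was searched as AGGAAG. Capitals mark AP-1, TATA and GC box core matches, and the base before the start is counted as −1.
MMP10 (chr11:102780629-102780878, minus strand): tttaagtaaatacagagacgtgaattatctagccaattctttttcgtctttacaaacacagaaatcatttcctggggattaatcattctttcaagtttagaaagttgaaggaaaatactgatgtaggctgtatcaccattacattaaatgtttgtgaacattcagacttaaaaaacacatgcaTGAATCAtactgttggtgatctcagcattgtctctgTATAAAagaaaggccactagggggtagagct
MMP14 (chr14:22836335-22836584, plus strand): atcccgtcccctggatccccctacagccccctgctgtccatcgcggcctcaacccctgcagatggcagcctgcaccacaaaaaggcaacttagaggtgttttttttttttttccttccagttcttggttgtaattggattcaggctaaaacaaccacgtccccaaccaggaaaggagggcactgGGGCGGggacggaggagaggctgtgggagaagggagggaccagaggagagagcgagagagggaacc
TIMP1 (chrX:47582186-47582435, plus strand): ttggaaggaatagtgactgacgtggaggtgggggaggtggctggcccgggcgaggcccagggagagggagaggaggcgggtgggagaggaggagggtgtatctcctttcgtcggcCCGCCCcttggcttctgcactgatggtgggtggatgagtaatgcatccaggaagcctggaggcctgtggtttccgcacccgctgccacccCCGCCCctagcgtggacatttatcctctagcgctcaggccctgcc
TIMP3 (chr22:32801455-32801704, plus strand): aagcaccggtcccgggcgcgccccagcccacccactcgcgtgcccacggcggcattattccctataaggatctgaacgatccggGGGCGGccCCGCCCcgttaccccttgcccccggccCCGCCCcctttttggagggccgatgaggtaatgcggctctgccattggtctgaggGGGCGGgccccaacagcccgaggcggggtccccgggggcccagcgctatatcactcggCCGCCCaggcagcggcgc
The MMP10 window held an AP-1 match beginning at −67 and a TATA box at −31, with 34.4% G and C. The MMP14 window held 1 GC box core, at −66 (56.8% G and C), and the TIMP1 window held 2, at −135 and −45, with an ETS core at −87 left in lower case (64.8%). The TIMP3 window held 5 GC box cores, beginning at −166, −158, −131, −76 and −18 (72.4%). No match overlapped another. Of 27305 windows of this length, 6.6% held the AP-1 letters, 11.13% the TATA box, 42.31% the GC box core and 28.71% the ETS core on either strand. A match describes letters and says nothing of binding.

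The targeted gene was read first. In Panc1, KLF10 measured 101, 101 and 104 CPM under siKLF10+TGFβ, 192, 187 and 206 under TGFβ, 83.0, 80.8 and 77.5 under siKLF10 and 140.2, 137 and 130.3 under siCont. Panc1 KLF10 fell with siKLF10, by a log2 change of −0.76 ± 0.0603, adjusted p = 2.58e-09 in cells given no TGFβ and of −0.94 ± 0.0593, adjusted p = 4.96e-11 in treated cells. In A549, KLF10 measured 151 and 142 CPM under siKLF10+TGFβ, 179 and 179 under TGFβ, 102 and 109 under siKLF10 and 110.3 and 107 under siCont. The A549 libraries labelled siKLF10 overlapped siCont for KLF10 (log2 −0.05 ± 0.0802, adjusted p = 0.743). With TGFβ their KLF10 was lower (−0.29 ± 0.0779, adjusted p = 0.00775), which missed the threshold when either TGFβ library was left out (adjusted p = 0.0624 for A and 0.057 for B). Every A549 direction below that rests on siKLF10 therefore belongs to the libraries labelled so.

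Libraries held 11152625 to 15571367 gene counts (Panc1) or 6846761 to 19070551 (A549), so that 3 counts, the most that a count of 0 allows, correspond to 0.193 to 0.269 CPM and 0.157 to 0.438 CPM, CPM being the count scaled to the size of its library. Panc1 siCont A stood apart for several genes that are high in squamous epithelium. The summed level of 8 basal or squamous markers was 8.57 to 10.9 CPM in Panc1 siKLF10+TGFβ, 8.84 to 16.6 in TGFβ, 8.56 to 9.58 in siKLF10 and 28.4 to 77.0 in siCont, with KRT6B at 0 throughout. In A549 it was 34.9 to 38.1 CPM in siKLF10+TGFβ, 15.6 to 15.9 in TGFβ, 5.47 to 8.10 in siKLF10 and 2.90 to 3.41 in siCont, with SPRR1B at 0. The summed level of 6 fibroblast markers was 34.0 to 38.5 CPM in Panc1 siKLF10+TGFβ, 28.2 to 31.9 in TGFβ, 14.7 to 15.2 in siKLF10 and 12.3 to 13.8 in siCont, and in A549 15.3 to 15.5 CPM in siKLF10+TGFβ, 10.1 to 12.2 in TGFβ, 2.35 to 3.63 in siKLF10 and 1.31 to 1.60 in siCont. Metalloproteinases are also made by such cells, and the part of these and the following lists in the results below was not tested. Haematopoietic markers, mainly CD68, summed to 39.2 to 56.2 CPM in Panc1 siKLF10+TGFβ, 156 to 171 in TGFβ, 73.2 to 97.3 in siKLF10 and 264 to 285 in siCont. In A549 they summed to 35.8 to 37.8 CPM in siKLF10+TGFβ, 54.1 to 57.9 in TGFβ, 17.4 to 18.7 in siKLF10 and 29.8 to 30.1 in siCont. Endothelial markers were at most 0.509 CPM in Panc1, and in A549 4.15 to 6.18 CPM in siKLF10+TGFβ, 2.62 to 3.56 in TGFβ, 0.558 to 0.782 in siKLF10 and 0.263 to 0.363 in siCont. Duct markers summed to 276.6 to 301 CPM in Panc1 siKLF10+TGFβ, 282 to 292 in TGFβ, 393 to 413 in siKLF10 and 468 to 486 in siCont, with CFTR at 0 in both TGFβ-treated groups. In A549 they summed to 3156 to 3337 CPM in siKLF10+TGFβ, 4160 to 4449 in TGFβ, 2378 to 2398 in siKLF10 and 2287 to 2304 in siCont. Acinar and endocrine markers summed to at most 0.160 CPM in Panc1. Lung epithelial markers were nearly absent in A549 (at most 2.51 CPM summed, with SFTPA1 and SFTPB at 0 in siCont), so these defining markers do not identify the line as lung.

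Most tested members were called in the TGFβ response of both lines, and the largest fold changes were in A549. In A549 TGFβ libraries, 8 of 9 tested members rose over siCont and none fell, where 47.7% of all tested genes were called (24.2% higher and 23.5% lower). The median log2 fold change was 5.97 over these 9 members and −0.01 over all tested genes. In Panc1, 4 of 7 tested members rose and 2 fell, where 29% of all genes were called (14% higher and 15.1% lower), with medians of 0.61 and −0.01. Of the A549 members, MMP1, MMP3, MMP9, MMP10 and TIMP3 passed the low-count filter only through the TGFβ groups, as did MMP10 in Panc1, so a difference was built into their being tested. Of the 4 A549 members that passed without them, MMP2, TIMP1 and TIMP2 rose and MMP14 was not called. The authors' deposited table for this A549 comparison gives other values (MMP2 log2 −0.053), and its log2 fold changes correlated with those of the counts over 13681 genes at r = 0.153, so the A549 directions here are those of the count tables. MMP3, MMP9 and MMP13 in Panc1 and MMP13 in A549 were too low to test. In bulk RNA, a change in how many cells make a transcript and a change in how much each cell makes cannot be told apart. Nor can the line and any handling that goes with it, in every comparison between the lines below. Reads outside any counted gene, for example, came to 33.57 to 36.95% in Panc1 and 57.64 to 60.15% in A549.

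In Panc1 siKLF10, MMP2 and MMP14 rose and MMP1, TIMP2 and TIMP3 fell, 5 of 7 tested members where 35.6% of all genes were called (17.3% higher and 18.3% lower). In the A549 libraries labelled siKLF10, MMP2, MMP10 and MMP14 rose and TIMP1 fell, 4 of 8 where 19.5% of all genes were called (9.57% higher and 9.96% lower). Under TGFβ, Panc1 siKLF10+TGFβ had higher MMP2 and TIMP2 and lower MMP1 and TIMP1 than TGFβ alone, 4 of 7 where 41.7% of all genes were called (21.1% higher and 20.6% lower). A549 siKLF10+TGFβ had higher MMP2, TIMP2 and TIMP3 and lower MMP1, MMP9 and MMP10, 6 of 9 where 28.3% of all genes were called (14.4% higher and 13.9% lower). MMP2 was the one member called higher in all 4 of these comparisons. The siKLF10+TGFβ and siKLF10 groups differed in 6 of 7 members in Panc1 (5 higher and TIMP1 lower, with 45% of all genes called, 22.6% higher and 22.3% lower) and in 8 of 9 in A549 (all higher, with 53.3% of all genes called, 26.5% higher and 26.8% lower). Here too, A549 MMP1, MMP3, MMP9, MMP10 and TIMP3 and Panc1 MMP10 passed the low-count filter only through the TGFβ-treated groups. A difference was thus built into their being tested. Of the A549 members that passed without those groups, MMP2, TIMP1 and TIMP2 rose and MMP14 was not called.

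**Figure D1:**
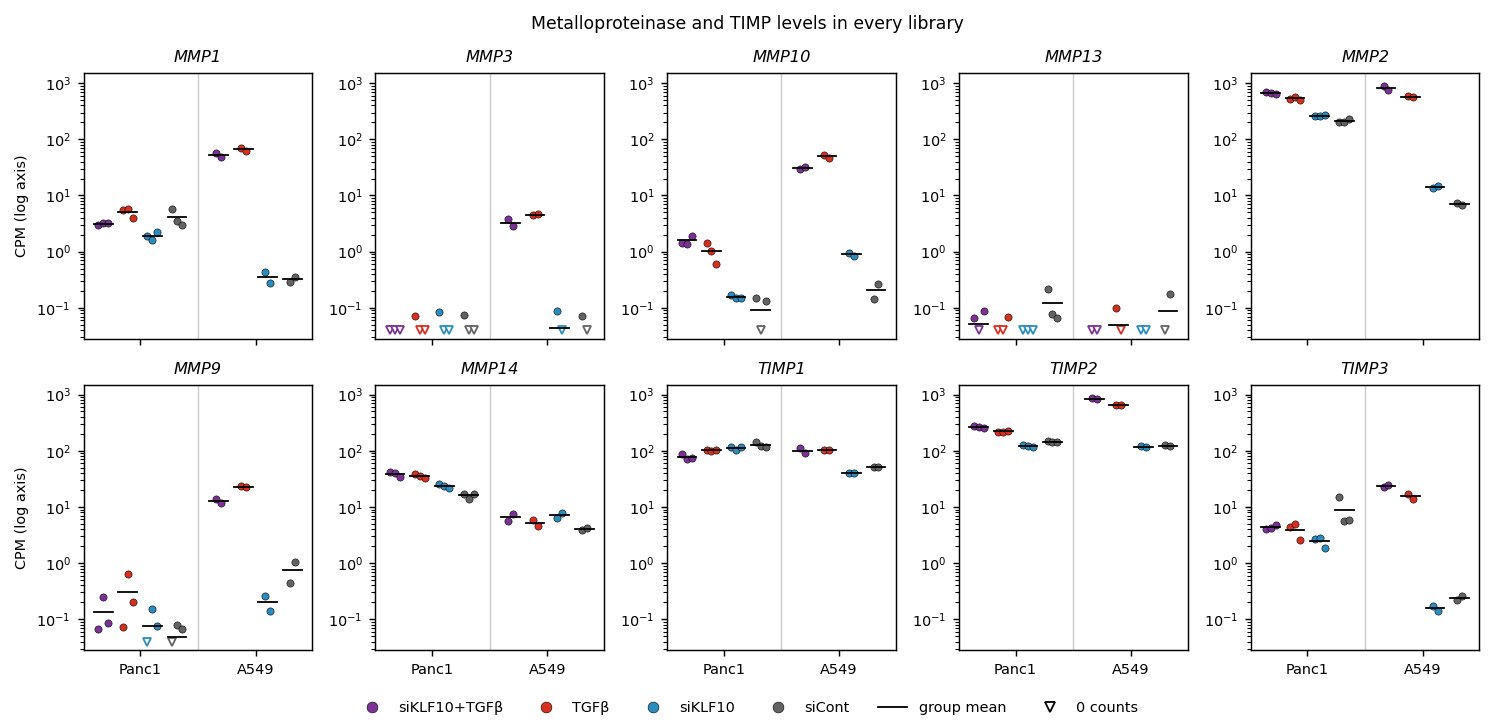
Level of each member in every library, as CPM on a log axis, with the 4 groups of Panc1 and of A549 side by side. Each dot is 1 library, a black line is the mean of a group, and an open triangle marks a library with 0 counts. MMP1, MMP2, MMP9, MMP10 and TIMP3 lie far higher in the TGFβ-treated A549 libraries than in the other A549 libraries, while MMP14 and TIMP1 span a narrow range in both lines.

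MMP1, the interstitial collagenase, measured 56.8 and 49.2 CPM under siKLF10+TGFβ, 68.9 and 63.0 under TGFβ, 0.434 and 0.279 under siKLF10 and 0.290 and 0.350 under siCont in A549. All 4 TGFβ-treated A549 libraries lay at or above 49.2 CPM and the other 4 at or below 0.434 CPM, where the siKLF10 and siCont libraries overlapped. The rise over siCont was 201-fold in TGFβ (log2 7.65 ± 0.215, adjusted p = 1.07e-17), against 8 counts summed in siCont. After the siKLF10 label it was 137-fold (7.10 ± 0.229, adjusted p = 1.21e-16). In siKLF10+TGFβ, MMP1 was lower than in TGFβ alone (−0.33 ± 0.103, adjusted p = 0.0211), a call that failed when TGFβ A (adjusted p = 0.231), TGFβ B (0.0505) or siKLF10+TGFβ B (0.148) was left out and with DESeq2 (0.14).

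In Panc1, MMP1 measured 2.96, 3.18 and 3.30 CPM under siKLF10+TGFβ, 5.45, 5.83 and 4.01 under TGFβ, 1.89, 1.58 and 2.20 under siKLF10 and 5.75, 3.47 and 2.995 under siCont. The TGFβ and siCont libraries overlapped, and siKLF10 lay below every other group. TGFβ did not move MMP1 past the threshold (0.32 ± 0.209, adjusted p = 0.274), although without siCont A the value was 0.655 ± 0.202 (adjusted p = 0.0203). MMP1 fell with siKLF10 in the absence of TGFβ (−1.10 ± 0.252, adjusted p = 0.00167) and in its presence (−0.69 ± 0.221, adjusted p = 0.0149), the second call failing when TGFβ A (adjusted p = 0.0528) or TGFβ B (0.0692) was left out. It rose in siKLF10+TGFβ over siKLF10 (0.73 ± 0.266, adjusted p = 0.0294), which was lost without siKLF10 A (adjusted p = 0.056), siKLF10 B (0.0963), siKLF10+TGFβ B (0.0632) or siKLF10+TGFβ C (0.0674), and with plain library sizes (0.0552). Untreated, MMP1 was 12.1-fold higher in Panc1 siCont than in A549 siCont (3.60 ± 0.397, adjusted p = 6.07e-10), and after TGFβ the order was the other way round. The TGFβ response was smaller in Panc1 than in A549 (difference −7.26 ± 0.374, adjusted p = 7.46e-17).

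MMP10, stromelysin-2 and the neighbour of MMP1, measured 29.4 and 31.9 CPM under siKLF10+TGFβ, 52.9 and 47.2 under TGFβ, 0.955 and 0.838 under siKLF10 and 0.145 and 0.263 under siCont in A549, with no overlap between any groups. The rise over siCont in TGFβ was 240.0-fold (7.90 ± 0.24, adjusted p = 4.46e-17), on 844 summed counts in TGFβ and 5 in siCont. The libraries labelled siKLF10 held 17 counts, above siCont (2.13 ± 0.571, adjusted p = 0.0108), a call lost without siCont A (adjusted p = 0.133) or siKLF10 A (0.123). With TGFβ the direction was opposite, siKLF10+TGFβ being lower than TGFβ (−0.71 ± 0.111, adjusted p = 5.24e-05). The TGFβ response of MMP10 was thus smaller after the siKLF10 label, at 33.4-fold, and the interaction (the TGFβ response with the siKLF10 label less that without) was called (−2.84 ± 0.578, adjusted p = 0.00403). It was lost without siKLF10 A (−2.722, adjusted p = 0.078). MMP10 and TIMP2 were the 2 of 8 tested members with a called interaction in A549, where 6.49% of all genes were called (3.26% higher and 3.23% lower).

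A difference was built into the testing of Panc1 MMP10, which passed the low-count filter only through the TGFβ-treated groups. MMP10 was near 0 in Panc1 without TGFβ. It measured 1.45, 1.39 and 1.91 CPM there under siKLF10+TGFβ, 1.45, 1.04 and 0.612 under TGFβ, 0.171, 0.151 and 0.152 under siKLF10 and 0.147, 0 and 0.133 under siCont. Summed counts were 61 in siKLF10+TGFβ, 42 in TGFβ, 6 in siKLF10 and 4 in siCont, and the TGFβ-treated libraries lay above all others. The rise was 3.29 ± 0.591, adjusted p = 0.000145 in TGFβ over siCont and 3.24 ± 0.505, adjusted p = 1.68e-05 in siKLF10+TGFβ over siKLF10. No difference with siKLF10 passed the test (without TGFβ 0.65 ± 0.901, adjusted p = 0.614, and with it 0.61 ± 0.335, adjusted p = 0.153). The TGFβ response was smaller in Panc1 than in A549 (difference −4.56 ± 1.17, adjusted p = 0.00273). The effect of the siKLF10 label under TGFβ differed between the lines (Panc1 minus A549 1.28 ± 0.32, adjusted p = 0.00403), 1 of 8 tested members where 19.8% of all genes were called (7.52% higher and 12.3% lower). A count of 1 of 8 does not exceed that background.

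MMP3, stromelysin-1, was read almost entirely in TGFβ-treated A549 cells, at 3.75 and 2.82 CPM under siKLF10+TGFβ, 4.53 and 4.60 under TGFβ, 0.0868 and 0 under siKLF10 and 0.0726 and 0 under siCont. With 76 counts in TGFβ and 1 in siCont the ratio of summed CPM was 109 (exact 95% counting interval 19.0 to 4360), and with 89 in siKLF10+TGFβ and 1 in siKLF10 it was 55.4 (exact 95% counting interval 9.69 to 2210). The siKLF10+TGFβ and TGFβ groups did not differ past the threshold (−0.52 ± 0.273, adjusted p = 0.169). In Panc1 the 12 libraries held 0 counts of MMP3 in siKLF10+TGFβ and 1 in each other group. MMP13, collagenase 3, was at 5 or fewer summed counts in every group, with at most 5 in Panc1 (siCont) and at most 2 in A549 (siCont). At this depth no difference in MMP13 was detectable (TGFβ over siCont in Panc1 0.198 (exact 95% counting interval 0.00418 to 1.77)).

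MMP2, gelatinase A, was the most abundant of the 7 protease transcripts per kilobase in each of the 8 groups. In Panc1, MMP2 measured 694, 673 and 648 CPM under siKLF10+TGFβ, 531, 562 and 508 under TGFβ, 262, 263 and 270.3 under siKLF10 and 205, 204 and 226 under siCont. All 4 groups were apart from one another, in that order from high to low. TGFβ raised MMP2 2.52-fold (1.33 ± 0.0597, adjusted p = 4.94e-14) without siKLF10 and 2.53-fold with it (1.34 ± 0.0595, adjusted p = 2.7e-14). siKLF10 added 0.33 ± 0.0594, adjusted p = 0.000192 without TGFβ and 0.33 ± 0.0582, adjusted p = 9.43e-05 with it, and the interaction was 0.01 ± 0.0832, adjusted p = 0.98.

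In A549, MMP2 measured 874 and 749 CPM under siKLF10+TGFβ, 580.1 and 565 under TGFβ, 13.8 and 14.8 under siKLF10 and 7.33 and 6.65 under siCont. The groups were again apart and in the same order as in Panc1. The rise in TGFβ over siCont was 81.5-fold (6.35 ± 0.113, adjusted p = 1.04e-20) and in siKLF10+TGFβ over siKLF10 57.0-fold (5.83 ± 0.108, adjusted p = 1.83e-20). The siKLF10 label went with a 2.03-fold rise without TGFβ (1.02 ± 0.139, adjusted p = 2.18e-05) and 1.42-fold with it (0.50 ± 0.0792, adjusted p = 5.83e-05). Its interaction in A549 was −0.52 ± 0.16, adjusted p = 0.0595, past the threshold with plain library sizes (adjusted p = 0.0492), without the low-count filter (0.0443) and without siKLF10+TGFβ A (0.00186).

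Untreated Panc1 held 29.4-fold more MMP2 than untreated A549 (4.88 ± 0.103, adjusted p = 3.47e-29), and after TGFβ the highest level was in A549 siKLF10+TGFβ. The TGFβ response of MMP2 was smaller in Panc1 than in A549 (difference −4.93 ± 0.124, adjusted p = 2.44e-25). MMP2 was also the single member, of 7 tested, whose siKLF10 effect without TGFβ differed between the lines (−0.67 ± 0.146, adjusted p = 0.00139), where 17.2% of all genes were called (8.59% higher and 8.65% lower). This count does not exceed the background.

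MMP9, gelatinase B, was an A549 transcript. It measured 14.0 and 11.6 CPM under siKLF10+TGFβ, 23.3 and 22.4 under TGFβ, 0.261 and 0.140 under siKLF10 and 0.435 and 1.05 under siCont, with all 4 groups apart. TGFβ raised MMP9 31.6-fold over siCont (4.98 ± 0.251, adjusted p = 2.54e-13), on 383 counts in TGFβ and 18 in siCont. MMP9 was lower in siKLF10+TGFβ than in TGFβ (−0.86 ± 0.153, adjusted p = 0.000214), and lower in siKLF10 than in siCont by an amount that missed the threshold (−1.69 ± 0.695, adjusted p = 0.0944) except without siCont A (−2.232, adjusted p = 0.0458). Its rise in siKLF10+TGFβ over siKLF10 was 5.81 ± 0.367, adjusted p = 1.07e-11.

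In Panc1, MMP9 had 5 summed counts in siKLF10+TGFβ, 12 in TGFβ, 3 in siKLF10 and 2 in siCont and no library above 0.639 CPM. The ratio of TGFβ to siCont was 5.93 (exact 95% counting interval 1.32 to 54.6) and that of siKLF10+TGFβ to siKLF10 1.53 (exact 95% counting interval 0.297 to 9.82). Untreated, MMP9 was thus read on 2 counts in Panc1 and 18 in A549. The difference of its TGFβ response between lines was not past the threshold without siKLF10 (adjusted p = 0.258).

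MMP14, the membrane-type activator of proMMP2, responded to TGFβ in Panc1 more than in A549. In Panc1, MMP14 measured 42.4, 39.7 and 34.5 CPM under siKLF10+TGFβ, 38.2, 35.7 and 32.9 under TGFβ, 25.6, 24.0 and 21.9 under siKLF10 and 17.3, 13.8 and 17.2 under siCont. The TGFβ-treated groups overlapped each other and lay above siKLF10, which lay above siCont. TGFβ raised MMP14 2.21-fold (1.14 ± 0.103, adjusted p = 8.73e-09), siKLF10 raised it without TGFβ (0.56 ± 0.108, adjusted p = 0.000316), and under TGFβ siKLF10 made no difference past the threshold (0.13 ± 0.0952, adjusted p = 0.283). The rise after siKLF10 was 0.71 ± 0.0995, adjusted p = 4.1e-06. The Panc1 interaction was −0.43 ± 0.144, adjusted p = 0.0945, and passed the threshold with plain library sizes (adjusted p = 0.0449), without the filter (0.0455) and without siKLF10+TGFβ A (0.0328).

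In A549, MMP14 measured 5.57 and 7.58 CPM under siKLF10+TGFβ, 5.83 and 4.60 under TGFβ, 6.43 and 7.96 under siKLF10 and 3.85 and 4.20 under siCont. The siCont libraries lay below the other groups, which overlapped. TGFβ did not move MMP14 past the threshold without siKLF10 (0.40 ± 0.238, adjusted p = 0.172) or after it (−0.06 ± 0.2, adjusted p = 0.819). MMP14 was the 1 tested A549 member without a called TGFβ response. It was higher in the libraries labelled siKLF10 than in siCont (0.81 ± 0.221, adjusted p = 0.0119), a call lost without siCont A (adjusted p = 0.0982) or siKLF10 B (0.0957) and with DESeq2 (0.0861).

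MMP14 was the 1 member whose TGFβ response was larger in Panc1 than in A549 (difference 0.81 ± 0.261, adjusted p = 0.0157), which was lost without A549 siCont B (adjusted p = 0.0759) or A549 TGFβ B (0.092). After siKLF10 the difference was 0.78 ± 0.223, adjusted p = 0.00561, lost without A549 siKLF10 B (adjusted p = 0.0531). In all, 7 of 8 tested members differed between lines in the TGFβ response without siKLF10, where 31% of all genes were called (17.1% higher and 13.8% lower), and 7 of 8 after it, where 37% of all genes were called (17.8% higher and 19.2% lower). The 8 tested include MMP9 and MMP10, which within a line passed the low-count filter only through TGFβ-treated groups. Neither count is therefore free of that selection.

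**Figure D2:**
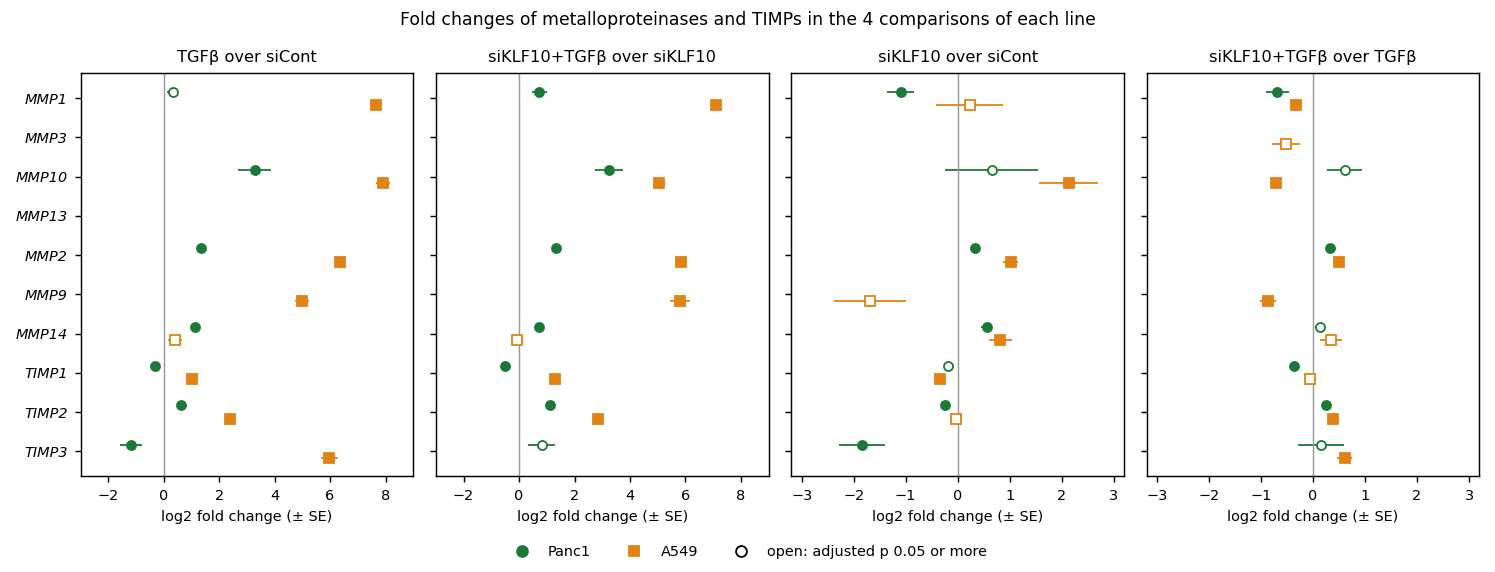
Log2 fold change of each tested member in 4 comparisons (TGFβ over siCont, siKLF10+TGFβ over siKLF10, siKLF10 over siCont, siKLF10+TGFβ over TGFβ). Green circles are Panc1, orange squares are A549, bars are the standard error, and open symbols have an adjusted p of 0.05 or more. A549 values of MMP1, MMP2, MMP9, MMP10 and TIMP3 lie far to the right of 0 in the TGFβ over siCont panel, and comparisons that were not tested or that rest on a group with 1 to 3 counts are not drawn.

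Among the inhibitors, TIMP2, which both inhibits MMP2 and helps its activation by MMP14, was highest in the TGFβ-treated groups of both lines. In Panc1, TIMP2 measured 279, 263 and 251 CPM under siKLF10+TGFβ, 219, 218 and 226 under TGFβ, 127, 123 and 119 under siKLF10 and 146, 142 and 145 under siCont, with all groups apart and siCont above siKLF10. In A549, TIMP2 measured 861 and 828 CPM under siKLF10+TGFβ, 651 and 644 under TGFβ, 123 and 114 under siKLF10 and 125 and 119.7 under siCont, where siKLF10 and siCont overlapped. TGFβ raised TIMP2 in Panc1 (0.61 ± 0.0567, adjusted p = 1.23e-08) and 5.30-fold in A549 (2.41 ± 0.0772, adjusted p = 1.21e-16), a smaller rise in Panc1 than in A549 (difference −1.71 ± 0.0956, adjusted p = 6.02e-16).

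siKLF10 lowered TIMP2 in Panc1 without TGFβ (−0.24 ± 0.0576, adjusted p = 0.00281) and raised it with TGFβ (0.26 ± 0.0559, adjusted p = 0.000838). TIMP2 was the 1 of 7 tested Panc1 members with a called interaction (0.49 ± 0.0802, adjusted p = 0.00076), where 4.42% of all genes were called (2.56% higher and 1.86% lower), and its TGFβ response was 1.11 ± 0.0573, adjusted p = 4.24e-13 after siKLF10. In the A549 libraries labelled siKLF10, TIMP2 did not differ past the threshold from siCont (−0.04 ± 0.0772, adjusted p = 0.782), and was higher in siKLF10+TGFβ than in TGFβ (0.38 ± 0.072, adjusted p = 0.000398). The A549 interaction had the same sign (0.42 ± 0.106, adjusted p = 0.0181), and was lost without siCont A (adjusted p = 0.143), siCont B (0.082), TGFβ A (0.0838), TGFβ B (0.0913) or siKLF10 B (0.121). Untreated levels of TIMP2 were close, Panc1 being higher by 0.21 ± 0.0686, adjusted p = 0.00685, a call lost without A549 siCont B (adjusted p = 0.0682).

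TIMP1, a broad inhibitor that also binds proMMP9, went down with TGFβ in Panc1 and up in A549. In Panc1, TIMP1 measured 88.2, 72.2 and 75.4 CPM under siKLF10+TGFβ, 104, 99.0 and 101 under TGFβ, 115, 103 and 116 under siKLF10 and 146, 120.1 and 115 under siCont. The siKLF10+TGFβ libraries lay below all others, and the other groups overlapped their neighbours. TGFβ lowered it (−0.32 ± 0.0837, adjusted p = 0.00499), a call lost without siCont A (−0.215, adjusted p = 0.0534), and TGFβ after siKLF10 lowered it too (−0.50 ± 0.0855, adjusted p = 5.78e-05). siKLF10 lowered it under TGFβ (−0.36 ± 0.0855, adjusted p = 0.00172). Without TGFβ its difference was −0.19 ± 0.0836, adjusted p = 0.0854, past the threshold without the filter (adjusted p = 0.0412), without siCont C (0.0332) and without siKLF10+TGFβ A (0.0383).

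In A549, TIMP1 measured 109.7 and 90.8 CPM under siKLF10+TGFβ, 104 and 103 under TGFβ, 40.7 and 39.9 under siKLF10 and 51.7 and 51.0 under siCont, with the TGFβ-treated groups overlapping and siCont above siKLF10. TGFβ raised it 2.02-fold (1.01 ± 0.0952, adjusted p = 9.87e-09) and after siKLF10 2.47-fold (1.31 ± 0.0982, adjusted p = 2.06e-10). The difference between lines was −1.25 ± 0.133, adjusted p = 2.79e-09. TIMP1 was lower in the libraries labelled siKLF10 than in siCont (−0.35 ± 0.101, adjusted p = 0.0179), a call lost without any one of siCont A, siCont B, siKLF10 A and siKLF10 B (adjusted p = 0.094 to 0.12) and with DESeq2 (0.0513). Under TGFβ no difference passed the threshold (−0.05 ± 0.0915, adjusted p = 0.7), though without siKLF10+TGFβ B the A549 interaction of TIMP1 was called (0.432, adjusted p = 0.0156). The difference between lines in the siKLF10 effect under TGFβ was called for TIMP1 without Panc1 siCont A (−0.346, adjusted p = 0.0351), Panc1 siCont C (0.0492), Panc1 siKLF10+TGFβ A (0.0113) or A549 siKLF10+TGFβ B (0.02), and for MMP2 without the last of these (−0.295, adjusted p = 0.0487).

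TIMP3, the matrix-bound inhibitor, was far higher with TGFβ in A549 and lower with it in Panc1. In A549, TIMP3 measured 23.1 and 24.4 CPM under siKLF10+TGFβ, 17.1 and 13.8 under TGFβ, 0.174 and 0.140 under siKLF10 and 0.218 and 0.263 under siCont, and no groups overlapped. Summed counts were 678 in siKLF10+TGFβ, 263 in TGFβ, 3 in siKLF10 and 6 in siCont. TGFβ raised it 62.8-fold over siCont (5.97 ± 0.298, adjusted p = 2.15e-13), and siKLF10+TGFβ over siKLF10 gave a ratio of 141 (exact 95% counting interval 47.9 to 684). TIMP3 was higher in siKLF10+TGFβ than in TGFβ (0.61 ± 0.136, adjusted p = 0.00203), lost without TGFβ B (0.477, adjusted p = 0.0527) and with DESeq2 (0.057). Between siKLF10 and siCont the ratio was 0.669 (exact 95% counting interval 0.108 to 3.13).

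In Panc1, TIMP3 measured 4.08, 4.24 and 4.77 CPM under siKLF10+TGFβ, 4.36, 4.88 and 2.58 under TGFβ, 2.74, 2.79 and 1.89 under siKLF10 and 15.2, 5.51 and 5.92 under siCont. The siCont libraries lay above all others, and siCont A, with 207 counts, was well above siCont B and C. KRT5, a basal keratin, was also high in that library (60.7 CPM, against 21.8 and 22.3 CPM in siCont B and C). TIMP3 fell in TGFβ over siCont (−1.19 ± 0.4, adjusted p = 0.0497) and in siKLF10 over siCont (−1.84 ± 0.44, adjusted p = 0.00844). Without siCont A these values were −0.555 ± 0.213 (adjusted p = 0.0635) and −1.216 ± 0.233 (adjusted p = 0.000456). The TGFβ call was also lost without any one library of TGFβ, siKLF10 or siKLF10+TGFβ (adjusted p = 0.062 to 0.135), without the low-count filter (0.0979), with DESeq2's size factors (0.052) and with the 2 groups alone (0.192), and the siKLF10 call with the 2 groups alone (0.0664). No difference passed the test between siKLF10+TGFβ and TGFβ (0.16 ± 0.448, adjusted p = 0.809) or between siKLF10+TGFβ and siKLF10 (0.81 ± 0.494, adjusted p = 0.211), although the second was called without siCont A (0.815 ± 0.225, adjusted p = 0.00567), with DESeq2 (0.0456) and with the 2 groups alone (0.00616). The interaction was 2.0 ± 0.635, adjusted p = 0.122, and was called without siCont A (1.37 ± 0.31, adjusted p = 0.0159) and with DESeq2 (2.006, adjusted p = 0.00126).

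Untreated Panc1 held more TIMP3 than untreated A549 (5.13 ± 0.727, adjusted p = 1.16e-05, and 4.497 without Panc1 siCont A), and the TGFβ response was lower in Panc1 than in A549 (difference −7.09 ± 0.808, adjusted p = 8.18e-06). TIMP1 and MMP14 were also higher in untreated Panc1 than in untreated A549 (1.27 ± 0.0963, adjusted p = 7.3e-14 for TIMP1 and 1.97 ± 0.169, adjusted p = 1.65e-12 for MMP14). In siCont, 7 of 8 tested members differed between the lines, where 81.9% of all genes were called (39% higher and 42.9% lower), so this count is near the background.

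To set proteases beside inhibitors, the log2 ratio of counts was taken within each library and is given as mean ± SD. This ratio is free of the scaling between libraries. Its level depends on gene length, so only its differences between groups are read, and a value near 0 does not mean equal amounts. MMP2 to TIMP2 stood at −0.06 ± 0.12 in A549 siKLF10+TGFβ, −0.18 ± 0.02 in TGFβ, −3.05 ± 0.14 in siKLF10 and −4.13 ± 0.06 in siCont. In Panc1 it stood at 1.35 ± 0.03 in siKLF10+TGFβ, 1.27 ± 0.10 in TGFβ, 1.11 ± 0.07 in siKLF10 and 0.55 ± 0.08 in siCont. TGFβ thus went with a ratio 3.95 higher in A549 and 0.72 higher in Panc1, and in both lines the siCont libraries were the lowest. MMP14 to TIMP2 differed by −2.04 between A549 TGFβ and siCont, at −6.96 ± 0.23 in TGFβ and −4.92 ± 0.13 in siCont, while in Panc1 it was 0.54 higher, at −2.64 ± 0.13 in TGFβ and −3.18 ± 0.17 in siCont.

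MMP14 to TIMP3 likewise differed by −5.64 between A549 TGFβ (−1.57 ± 0.02) and siCont (4.07 ± 0.10), and by 2.21 between Panc1 TGFβ (3.22 ± 0.41) and siCont (1.01 ± 0.73), where siCont A alone was at 0.18. MMP1 to TIMP1 was −0.65 ± 0.08 in A549 TGFβ against −7.33 ± 0.20 in siCont. MMP9 to TIMP1 was −2.18 ± 0.03 in A549 TGFβ against −6.25 ± 0.91 in siCont. The libraries of these groups did not overlap. In A549 siCont A and B these ratios rest on 3 and 3 counts of TIMP3, 4 and 4 of MMP1, and 6 and 12 of MMP9. A small SD between such libraries is therefore no measure of precision. No test was run on these ratios, which are given as a description. A ratio shows unequal change and not which partner moved.

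**Figure D3:**
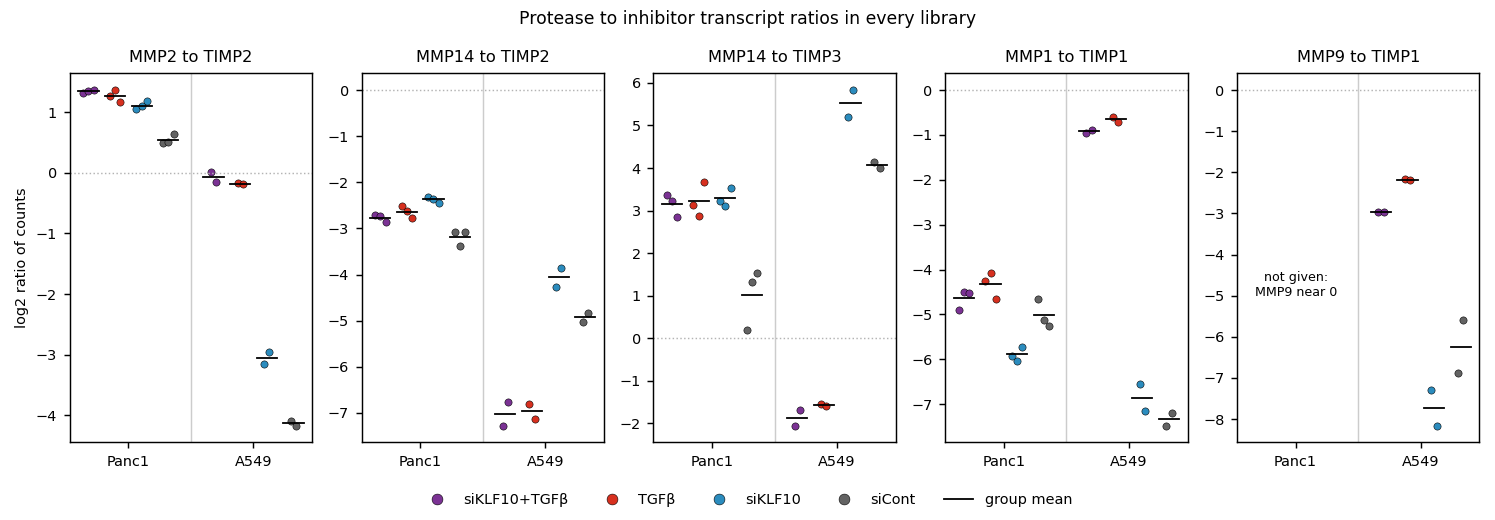
Log2 ratio of the counts of a protease to those of an inhibitor in every library, in 5 panels, for the 4 groups of each line. Each dot is 1 library and a black line is the mean of a group. The MMP2 to TIMP2 ratio is higher in TGFβ than in siCont in both lines, while the MMP14 to TIMP2 and MMP14 to TIMP3 ratios are lower in A549 TGFβ than in A549 siCont and higher in Panc1 TGFβ than in Panc1 siCont.

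Levels of different genes were compared only per kilobase of annotated exon (CPM per kb, mean ± SD). In Panc1 siKLF10+TGFβ, MMP2 led with 142 ± 4.83, ahead of TIMP2 (64.9 ± 3.44), TIMP1 (53.9 ± 5.81) and MMP14 (10.4 ± 1.07). In Panc1 TGFβ, MMP2 also led (113 ± 5.64), whereas TIMP1 led in siKLF10 (76.3 ± 4.76) and in siCont (87.0 ± 11.2). In A549, TIMP2 led in siKLF10+TGFβ (207 ± 5.83, with MMP2 at 171 ± 18.6) and in TGFβ (159 ± 1.20, with MMP2 at 121 ± 2.28). In A549 siKLF10, TIMP2 (29.1 ± 1.49) and TIMP1 (27.6 ± 0.392) differed by about the SD of TIMP2, and in siCont TIMP1 (35.2 ± 0.343) was above TIMP2 (30.0 ± 0.870), with every protease at or below 3.02 CPM per kb in both groups.

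MMP1, MMP3, MMP10 and MMP13 lie in 1 cluster on chromosome 11, and the other members lie on chromosomes 16 (MMP2), 20 (MMP9), 14 (MMP14), X (TIMP1), 17 (TIMP2) and 22 (TIMP3). In the annotation the order is TMEM123, MMP7, MMP20, MMP27, MMP8, MMP10, MMP1, MMP3, MMP12, MMP13 and DCUN1D5. The TGFβ rise in A549 covered neighbouring MMP10, MMP1 and MMP3, and MMP12, macrophage elastase, stood at 1.31 and 2.52 CPM in TGFβ and 0 and 0.0875 CPM in siCont. MMP7, matrilysin, at the far side of the cluster, went the other way, with 20.4 and 12.0 CPM under siKLF10+TGFβ, 13.8 and 8.91 under TGFβ, 43.9 and 51.8 under siKLF10 and 49.4 and 46.4 under siCont in A549. It fell in TGFβ (−2.04 ± 0.268, adjusted p = 0.000451) and in siKLF10+TGFβ over siKLF10 (−1.61 ± 0.246, adjusted p = 0.000889). MMP8, MMP20 and MMP27 had 0 to 2 summed counts in any group.

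**Figure D4:**
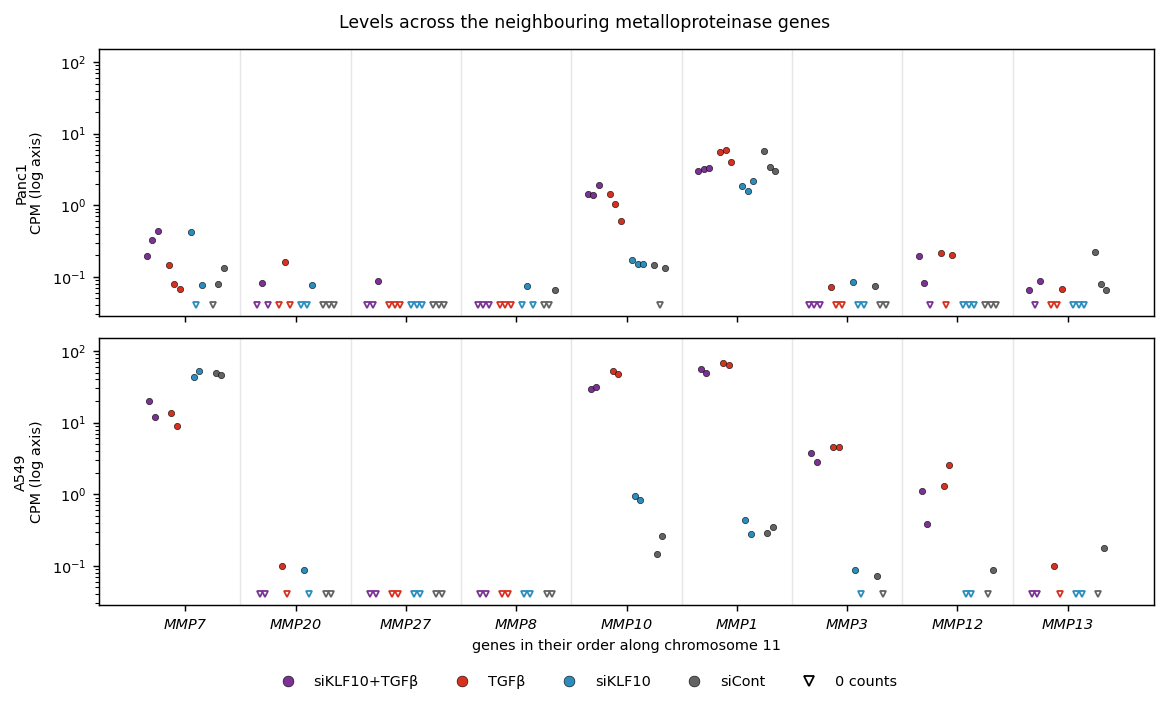
Levels of the genes of the chromosome 11 metalloproteinase cluster, in their order along the chromosome, as CPM on a log axis, with Panc1 above and A549 below. Each dot is 1 library and an open triangle a library with 0 counts. In A549, MMP10, MMP1, MMP3 and MMP12 are higher in the TGFβ-treated libraries and MMP7 is lower, while MMP20, MMP27, MMP8 and MMP13 are at or near 0.

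A list of the other 17 metalloproteinase genes and TIMP4 was also read, and 6 of these 18 were tested in Panc1 and 10 in A549. The shares of all tested genes called, beside which the counts of this and the next lists stand, were 29% in Panc1 and 47.7% in A549 for TGFβ over siCont, 35.6% in Panc1 and 19.5% in A549 for siKLF10 over siCont, 41.7% in Panc1 and 28.3% in A549 for siKLF10+TGFβ over TGFβ, and 45% in Panc1 and 53.3% in A549 for siKLF10+TGFβ over siKLF10. In Panc1 TGFβ, 3 rose and none fell (median log2 0.505): MMP25 (0.97 ± 0.332), MMP17 (0.74 ± 0.101) and MMP24 (0.66 ± 0.193), all membrane-type. In A549 TGFβ, 5 rose and 2 fell, the largest called being MMP12, MMP7, TIMP4 (1.87 ± 0.218) and MMP24 (−1.48 ± 0.104). MMP24 measured 28.8 and 23.2 CPM under siKLF10+TGFβ, 39.9 and 35.0 under TGFβ, 82.5 and 84.4 under siKLF10 and 109 and 101 under siCont in A549, the reverse of MMP2, and its TGFβ response differed between lines (2.22 ± 0.212, adjusted p = 2.97e-10). With siKLF10, Panc1 had MMP24 higher (0.68 ± 0.195) and MMP15 lower (−0.60 ± 0.14), and A549 had MMP24 lower (−0.33 ± 0.0963). Under TGFβ, MMP15 was lower in Panc1 siKLF10+TGFβ (−0.66 ± 0.138), and in A549 3 were higher, with MMP16 at 1.45 ± 0.28 and TIMP4 at 1.27 ± 0.169, and 2 lower, MMP12 (−1.48 ± 0.538) and MMP24 (−0.56 ± 0.114). In siKLF10+TGFβ over siKLF10, MMP25 and MMP17 rose in Panc1, and in A549 5 rose and 3 fell.

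Genes that activate, restrain or clear metalloproteinases were read beside them. Of 23 found in the files, 15 were tested in Panc1 and 19 in A549. In TGFβ, 6 rose and 7 fell in Panc1 (median log2 0.022) and 12 rose and 3 fell in A549 (median 1.257). FURIN, the convertase that removes the MMP14 propeptide, rose in Panc1 (1.37 ± 0.0896). SERPINE2, protease nexin-1, rose by 5.96 ± 0.0979 in A549, and THBS1, a matrix protein that binds MMP2, by 3.88 ± 0.0909. LCN2, which binds MMP9, fell in A549 (−3.15 ± 0.191), and PLAT, a plasminogen activator, fell in Panc1 (−1.59 ± 0.401). TFPI2, a Kunitz-type inhibitor, had 0.0727, 0 and 0.0680 CPM in Panc1 TGFβ and 9.21, 2.05 and 3.06 CPM in siCont, another gene high in siCont A.

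With siKLF10, 3 of these genes rose and 8 fell in Panc1 (of all genes, 17.3% higher and 18.3% lower), and 6 rose and 5 fell in A549 (9.57% higher and 9.96% lower). CD44, which holds MMP9 at the cell surface, fell in Panc1 (−1.33 ± 0.0561) and was lower in the A549 libraries labelled siKLF10 (−1.46 ± 0.0877). In Panc1, PLAT (−1.49 ± 0.402) and the urokinase receptor PLAUR (−0.55 ± 0.153) also fell. In A549, LCN2 fell (−1.36 ± 0.147) while PLAT (0.95 ± 0.193) and the membrane inhibitor RECK (0.79 ± 0.131) rose. Under TGFβ, 3 rose and 5 fell in Panc1 siKLF10+TGFβ, and 5 rose and 6 fell in A549. In Panc1 these were led by THBS1 (1.54 ± 0.0847), SERPINE2 (1.23 ± 0.203), CD44 (−1.16 ± 0.0559) and BSG, an inducer of metalloproteinases (−0.64 ± 0.0798). In A549 they were led by LCN2 (−2.13 ± 0.361), the convertase PCSK5 (1.17 ± 0.18), CD44 (−0.87 ± 0.0855) and the clearance receptor LRP1 (0.74 ± 0.0718).

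Of 18 genes for factors of the AP-1, ETS, RUNX, C/EBP and NF-κB families, which are known to act on metalloproteinase promoters, all were tested in both lines. TGFβ went with 7 higher and 4 lower in Panc1 (median log2 0.153) and with 12 higher and 4 lower in A549 (median 1.086). JUNB, a subunit of AP-1, rose in Panc1 (2.49 ± 0.123) and A549 (2.58 ± 0.0845), and RUNX1 in Panc1 (1.19 ± 0.0696) and A549 (2.75 ± 0.116). FOS fell in Panc1 (−2.32 ± 0.465), ELK3 rose there (1.03 ± 0.0761), and in A549 FOSB (5.68 ± 0.339) and RUNX2 (2.55 ± 0.383) rose. With siKLF10, 1 rose and 8 fell in Panc1, and 5 rose and 1 fell in A549, where the shares of all genes called were 35.6% in Panc1 and 19.5% in A549. Under TGFβ, FOSB was higher in siKLF10+TGFβ in Panc1 (1.77 ± 0.151) and A549 (1.13 ± 0.148), among 5 higher and 7 lower in Panc1 and 8 higher and 3 lower in A549. In siKLF10+TGFβ over siKLF10, 11 were higher and 3 lower in Panc1, and 13 higher and 3 lower in A549. Whether any of these factors bound the windows shown above was not measured.

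The genes most like each member by level were ranked by Pearson's r of log2(CPM + 1), which is a description over libraries that share their groups and depth. Over 12 Panc1 libraries, MMP2 was closest to COL5A1 (r = 0.998), a fibrillar collagen chain, then ULK1 and TPM1 (r = 0.9955 and 0.9954). MMP14 was closest to FOXS1 (r = 0.977), TIMP1 to AGPAT2 (r = 0.973) and TIMP2 to PRPS1 (r = 0.993). Over 8 A549 libraries, MMP1 was closest to RASGRP3, THBS1 and IL1A (r = 0.9997, 0.9995 and 0.9992), MMP9 to KLHL25 (r = 0.9996), MMP10 to FBXO32 (r = 0.9989), MMP14 to MNT (r = 0.971) and TIMP1 to SLC22A4 (r = 0.996). TIMP2 and TIMP3 were close to one another in A549 (r = 0.999), and both were closest to ATP8A2 (r = 0.9993 for TIMP2 and 0.9995 for TIMP3).

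Some of these counts could hold reads of overlapping genes, because no source used here states whether the counting used strand. In the annotation used here, the pseudogene WTAPP1 runs over MMP1, MMP3 and MMP10 on the opposite strand and shares 150 exon bases with MMP1. SLC12A5-AS1 shares 430 exon bases with MMP9 and AC022966.1 shares 367 with TIMP2, both on the opposite strand, and AC007336.3 shares 174 with MMP2 on the same strand. TIMP1 lies inside SYN1 and TIMP3 inside SYN3 with no shared exon base. SYN1, which encodes the neuronal protein synapsin I, measured 5.86, 6.12 and 6.68 CPM under siKLF10+TGFβ, 1.75, 1.92 and 2.58 under TGFβ, 10.2, 9.05 and 9.47 under siKLF10 and 3.61, 2.84 and 3.19 under siCont in Panc1. It rose with siKLF10 without TGFβ (1.57 ± 0.154, adjusted p = 6.24e-08) and with it (1.56 ± 0.177, adjusted p = 3.98e-07), unlike TIMP1, and SYN3 stayed at or below 0.257 CPM.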

How the data were processed

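Poly(A) RNA from 12 Panc1 and 8 A549 libraries was sequenced. The deposited read counts per gene are whole numbers that the authors had not normalized. The submitters' processing notes name TopHat, Bowtie2, HTSeq 0.6.0, DESeq2 and hg19, with no role or order. Whether the counting used strand is stated by no source used here. The authors also deposited comparison tables with a signal (base mean of normalized counts), log2 fold changes and adjusted p-values; their A549 siKLF10 table was not used because it holds infinite values. The 5 summary lines of each count table were left out of library sizes. The no-feature line came to 33.57 to 36.95% of a library in Panc1 and 57.64 to 60.15% in A549.

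Counts were fitted with edgeR 4.0.16 (R 4.3.3, limma 3.58.1) as one mean per group within each line, after filterByExpr (minimum count 10, minimum total 15) and TMM scaling, with robust quasi-likelihood tests and Benjamini-Hochberg adjustment over all 13218 genes tested in Panc1 and 14124 in A549. The differences between lines came from a fit of all 20 libraries (15058 genes). The threshold was an adjusted p of 0.05, and every adjusted p printed without another tool's name comes from this test. Fold changes are log2 ± SE, with SE taken as the absolute log2 value over the square root of F. CPM use TMM within a line. Folds against a group with 1 to 3 counts are given only as a ratio of summed CPM with an exact 95% interval, a rule made after seeing the data. Intervals and the limit of 3 counts for a 0 cover counting error only.

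All 10 members were read in every comparison, but not every value is printed. Of each further list, up to 4 called genes with the largest change are named. A gene that this rule names is not reported here. Likeness is the highest Pearson r of log2(CPM + 1) among tested genes of at least 5 CPM. The members and lists were chosen with earlier results of these data known. Tested on simulated data for TGFβ over siCont, the Panc1 fit recovered 82.7% of genes changed 1.5-fold, 92.9% changed 2-fold and 100% changed 4-fold (13054 genes, 5 false calls), the A549 fit 76.4, 93.8 and 98.4% (13725 genes, 9 false calls), and the difference between lines only 45.6% at 1.5-fold but 92.6 and 100% at 2-fold and 4-fold (14721 genes, 7 false calls). In the simulation all genes had the same spread, and no gene near 0 in siCont was among those changed. These rates therefore do not cover A549 MMP1, MMP3, MMP9, MMP10 and TIMP3 or Panc1 MMP10, nor members with uneven libraries such as Panc1 TIMP3. The alternatives were DESeq2 1.42.0, its size factors, plain library sizes, no filter, the 2 groups alone, a replicate block and leaving out each library.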

Additional observations from a re-analysis of the deposited data

Results flagged for a closer look

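Each value here is a difference of differences that passed its own test (edgeR's quasi-likelihood test, adjusted over all genes), which is why it is listed. The TGFβ response after siKLF10 minus the response without it was 0.49 ± 0.0802 for TIMP2 in Panc1 (adjusted p = 0.00076), −2.84 ± 0.578 for MMP10 in A549 (adjusted p = 0.00403) and 0.42 ± 0.106 for TIMP2 in A549 (adjusted p = 0.0181). As given above, both A549 values lost their call in some fits leaving out 1 library. The MMP10 value rests on 5 counts in A549 siCont and 17 in A549 siKLF10.

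The TGFβ response without siKLF10 differed between the lines (Panc1 minus A549, log2) by −7.26 for MMP1, −4.93 for MMP2, −4.56 for MMP10, 0.81 for MMP14, −1.25 for TIMP1, −1.71 for TIMP2 and −7.09 for TIMP3. After siKLF10 it differed by −6.35 for MMP1, −4.47 for MMP2, −5.16 for MMP9, 0.78 for MMP14, −1.79 for TIMP1, −1.7 for TIMP2 and −6.29 for TIMP3. Of these, the MMP9 value rests on 5 counts in Panc1 siKLF10+TGFβ and 3 in Panc1 siKLF10 and was lost without Panc1 siKLF10 B (−4.337, adjusted p = 0.188), and the TIMP3 value rests on 3 counts in A549 siKLF10. Neither is a measured size. Without siKLF10, the MMP10 value rests on 4 counts in Panc1 siCont and 5 in A549 siCont, and the TIMP3 value on 6 in A549 siCont. Both MMP1 values rest on few counts too, 8 in A549 siCont and 7 in A549 siKLF10. The sizes of these differences are therefore uncertain as well. Both MMP14 values lost their call in some fits leaving out 1 A549 library.

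The siKLF10 effect without TGFβ differed between the lines by −0.67 ± 0.146 for MMP2 (adjusted p = 0.00139), and the siKLF10 effect under TGFβ by 1.28 ± 0.32 for MMP10 (adjusted p = 0.00403). Without TGFβ, KLF10 itself was not called lower in the A549 libraries labelled siKLF10 than in siCont, so the first of these differences compares labels.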

How the results depend on the processing

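Of the results on single members, 110 kept their direction and side of the threshold with DESeq2, 116 with its size factors, 113 with plain library sizes, 112 without the filter, 54 with only the 2 groups compared, and 1471 of the fits that leave out 1 library, where 40 lost a call, 14 gained one and 19 turned direction. The members called for the Panc1 interaction were 1, and 2 with plain library sizes, DESeq2, no filter or the replicate block (1 to 2 leaving out a library). Its genes called ranged from 349 to 1035. Panc1 interaction MMP2 turned to −0.063 with plain library sizes and −0.001 without the filter. With DESeq2, the A549 siKLF10 comparison called 2 members (4 in edgeR) and 1673 genes (2758), siKLF10+TGFβ over TGFβ 2641 genes (3996) and the A549 interaction 543 genes (916).

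Leaving out 1 library gave 2 to 4 members and 1326 to 4040 genes for A549 siKLF10, 2237 to 5409 genes for A549 siKLF10+TGFβ over TGFβ, 1 to 3 members and 379 to 2685 genes for the A549 interaction, 1570 to 2840 genes for the line difference in siKLF10, and 1 to 3 members and 1895 to 3321 genes for that under TGFβ. Values that turned direction were none of them called: Panc1 siKLF10+TGFβ over TGFβ TIMP3 (−0.087 to 0.327), Panc1 interaction MMP2 (−0.047 to 0.043) and MMP10 (−0.426 to 0.447), A549 siKLF10 MMP1 (−0.187 to 0.451) and TIMP2 (−0.103 to 0.023), A549 siKLF10+TGFβ over TGFβ TIMP1 (−0.188 to 0.083), A549 siKLF10+TGFβ over siKLF10 MMP14 (−0.337 to 0.111), and the line differences under TGFβ of MMP9 (−1.018 to 0.698) and MMP14 (−0.482 to 0.05). The cause was not tested.

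The letters A, B and C are shared between groups, but same-lettered libraries deviated together in no uniform way (correlation −0.389 to 0.593 in Panc1 and −0.025 to 0.26 in A549). Panc1 siKLF10 and siKLF10+TGFβ gave 0.593 for A, 0.316 for B and −0.016 for C, while siKLF10 B with siKLF10+TGFβ C gave 0.457. With 2 libraries a group in A549, same-lettered and different-lettered values mirror each other. The check therefore cannot decide whether same-lettered libraries were handled together. The replicate block gained 3 calls and lost none: Panc1 siKLF10 TIMP1 (−0.183, adjusted p = 0.0455), Panc1 interaction TIMP3 (1.941, adjusted p = 0.0483) and the line difference under TGFβ of TIMP1 (−0.353, adjusted p = 0.0256), where it called 2 members in place of 1. With 2 libraries a group in A549, a left-out fit takes the spread of the lone library from the other groups. Depth limits MMP3, MMP9 and MMP13 in Panc1 and MMP13 in A549.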

Other observations

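The authors' deposited table for A549 TGFβ and siCont did not match the count tables, while their other tables used here did (r of log2 fold changes 0.926, 0.952 and 0.918 for the 3 Panc1 tables and 0.855 for A549 siKLF10+TGFβ over TGFβ, against 0.153). In the authors' deposited table of that comparison, TIMP3 has a base mean of 1617 and a log2 fold change of 1.752 (adjusted p = 1.26e-39), MMP2 a base mean of 848.9 and −0.053 (adjusted p = 0.825), MMP1 0.487 (adjusted p = 0.16) and MMP10 1.563 (adjusted p = 0.000128). The same table gives MMP14 a base mean of 250.4 and MMP13 one of 22.65, whereas in the A549 count tables MMP13 had at most 2 summed counts in a group. Which samples stand behind that table is not stated in it. In the authors' deposited table for Panc1 TGFβ and siCont, TIMP3 is at −0.551 (adjusted p = 0.117). The edgeR fit of the counts with all libraries gave −1.19 ± 0.4 (adjusted p = 0.0497), a call lost in most of the alternatives.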
